A study of Mus musculus with 18 samples.

Results

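Cells of the mouse fibroblast line NIH3T3 at 32 h and at 24 h after a glucocorticoid pulse were compared over all genes. The 4 libraries of the comparison, replicates 1 and 2 at each time, were chosen by the time in their names from the 18 libraries of the series. All groups were the same line given 100 nM dexamethasone, a synthetic glucocorticoid, over 2 h before its medium was changed. Time was counted from that medium change, and RNA was sequenced from cells harvested every 4 h up to 32 h. The interval from 24 h to 32 h is the second-day counterpart of 0 h to 8 h, the hours that followed the pulse directly. The groups used here were 0 h, 8 h, 24 h, 28 h and 32 h, with 2 libraries each. Every one of them had received the pulse and the new medium, so no group shows untreated cells. The labels do not say whether the 2 replicates were separate cultures, and the p-values measure only the spread between these libraries.

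The circadian clock of a fibroblast is a loop of transcription factors. CLOCK and ARNTL (BMAL1) switch on genes that carry E-boxes, among them the Per and Cry genes, whose proteins later repress CLOCK and ARNTL. The same activators drive Nr1d1 and Nr1d2, whose REV-ERB proteins repress Arntl through REV-ERB/ROR elements, so that Arntl runs opposite to them. DBP, TEF and HLF activate genes through D-boxes, and NFIL3 represses the same sites. A glucocorticoid pulse sets the separate clocks of the cells in a culture to a common phase.

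The table gives normalized reads, which are reads per gene divided by 1 factor per library. Library depth ran from 25.4 to 38.9 M reads over the 18 libraries and from 27.3 to 35.3 M over the 4 compared. A gene was tested when its mean over the 18 libraries was at least 10 normalized reads, which left 12393 of 21937 genes. Log2 changes are differences of log2(value + 1) with the standard error (SE) of a limma fit to all 18 libraries, a scale that understates the change of low genes. The p-values were adjusted over the 12393 genes by the Benjamini-Hochberg method, and 0.05 was the threshold. Same-numbered libraries of different times deviated together from the means of their times, so a second limma fit held the replicate number as a block. It is called the paired fit below, and its adjusted p is named as such. In bulk RNA, fewer cells expressing a gene and less RNA per cell cannot be told apart.

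Between 24 h and 32 h, 4 clock genes fell and 1 rose, and no other gene passed the threshold. Nr1d2 fell 3.36-fold, Per3 2.51-fold, Nr1d1 2.09-fold and Tef 1.93-fold, while Arntl rose 1.99-fold. The 5 genes were 0.0403% of those tested, with 0.00807% higher and 0.0323% lower, and 3 of them (0.0242%) fell at least 2-fold. Over all tested genes the median log2 change was 0.00, 49.6% of genes had a negative change, and 88.5% lay within 0.25 of 0. The deposited values are scaled per library, so a change shared by all genes could not show in them. At an unadjusted p under 0.05, 464 genes were higher and 531 lower. The quasi-likelihood test of edgeR on the recovered reads called 5 genes, and DESeq2 called 12. The 7 genes that DESeq2 added were Ctgf, Fdps, Lss, Thbs2, Tubb2c, Tubb5 and Vps13c, which are named here after their results were seen. The paired fit called 242 genes (1.95%), 132 higher (1.07%) and 110 lower (0.888%), and it is described after the clock genes.

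**Figure D1:**
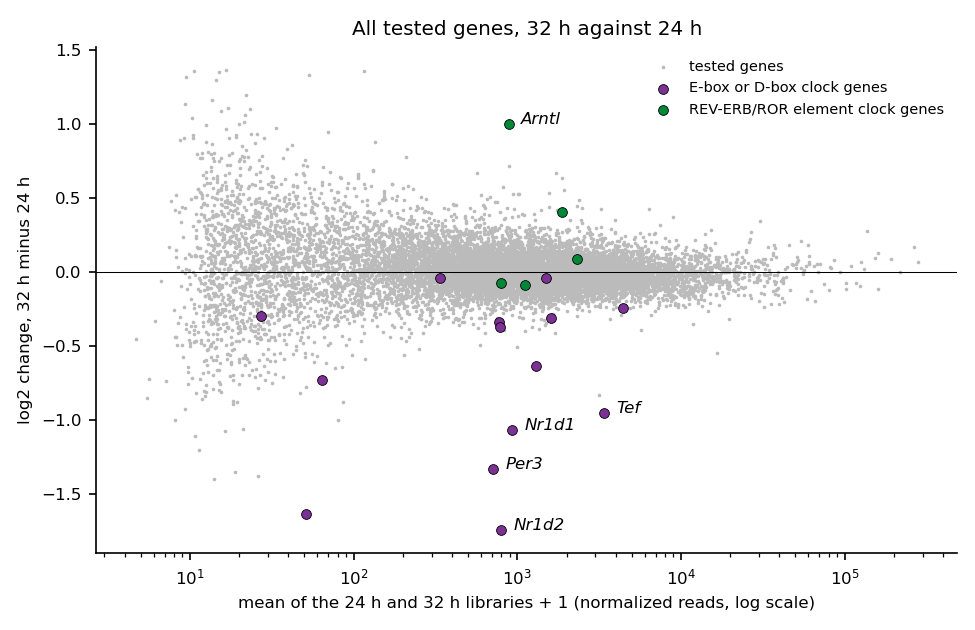
Log2 change from 24 h to 32 h of the 12393 tested genes against their mean level in the 4 libraries (normalized reads, log axis). Grey points are genes, and coloured points are clock genes of the E-box or D-box list and of the REV-ERB/ROR element list. The 5 genes past the threshold are labelled. Most genes lie on a band around 0 that widens at low levels, and 4 of the labelled genes lie below it.

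The 250 bases before the transcription start of these 5 genes are shown because the clock acts on them through short sequence elements. The sequences are from RefSeq on GRCm38.p6, a later build than the mm9 named for the reads, and each is written 5′ to 3′ on the strand of its gene. Capitals mark every match, on either strand, to 4 motifs: the E-box CACGTG, its variant CACGTT (E-prime box), the D-box TTATGTAA and AGGTCA. The letters AGGTCA are only part of a REV-ERB/ROR element, so a match to them does not show a whole element. The positions are chr14:18239107-18239356 (minus strand) for Nr1d2, chr11:98775378-98775627 (minus) for Nr1d1, chr4:151044666-151044915 (minus) for Per3, chr15:81802423-81802672 (plus) for Tef and chr7:113207215-113207464 (plus) for Arntl. RefSeq lists 2 starts for Tef and for Arntl, and the first listed was used. The bases just after the start were found in annotated transcripts of each gene except Nr1d1. Positions counted from the Nr1d1 start are therefore less sure.
Nr1d2: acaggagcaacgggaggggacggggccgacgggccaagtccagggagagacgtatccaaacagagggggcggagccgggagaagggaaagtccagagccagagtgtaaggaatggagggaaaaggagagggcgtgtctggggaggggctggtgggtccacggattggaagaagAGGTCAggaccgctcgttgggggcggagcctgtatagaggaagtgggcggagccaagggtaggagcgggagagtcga
Nr1d1: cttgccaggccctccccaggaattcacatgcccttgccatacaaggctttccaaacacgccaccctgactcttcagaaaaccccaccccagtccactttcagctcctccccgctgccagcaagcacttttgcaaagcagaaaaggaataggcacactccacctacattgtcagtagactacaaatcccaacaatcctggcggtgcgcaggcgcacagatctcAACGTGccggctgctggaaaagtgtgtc
Per3: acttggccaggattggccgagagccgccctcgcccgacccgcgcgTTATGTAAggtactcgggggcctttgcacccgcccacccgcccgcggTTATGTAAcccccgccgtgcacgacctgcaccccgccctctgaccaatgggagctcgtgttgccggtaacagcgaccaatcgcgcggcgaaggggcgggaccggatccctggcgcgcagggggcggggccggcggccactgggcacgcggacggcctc
Tef: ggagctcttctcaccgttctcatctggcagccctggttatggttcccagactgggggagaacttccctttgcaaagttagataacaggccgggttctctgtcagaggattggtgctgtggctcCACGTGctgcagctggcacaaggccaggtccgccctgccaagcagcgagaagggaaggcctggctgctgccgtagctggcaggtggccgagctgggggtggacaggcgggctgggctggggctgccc
Arntl: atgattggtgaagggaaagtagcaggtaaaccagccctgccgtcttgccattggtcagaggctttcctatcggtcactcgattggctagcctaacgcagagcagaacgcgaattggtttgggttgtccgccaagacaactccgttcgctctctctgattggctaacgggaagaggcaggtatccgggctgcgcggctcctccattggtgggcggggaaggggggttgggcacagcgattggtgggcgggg
Counted from the start, Per3 held D-boxes at -205 and -158, Tef an E-box at -127, Nr1d1 an E-prime box at -28 on the opposite strand (AACGTG) and Nr1d2 AGGTCA at -77. The Arntl window held none of the 4, and no matches overlapped. Of 32851 windows of this length, 6.02% held the E-box, 3.85% the E-prime box, 0.819% the D-box and 14.0% AGGTCA. A match describes the letters only and is not a measured binding site.

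Nr1d2 encodes REV-ERB beta, a heme-binding nuclear repressor. It held 1189 and 1256 normalized reads at 24 h in replicates 1 and 2, 536 and 619 at 28 h and 369 and 358 at 32 h. Both 24 h libraries stood well above both at 28 h, and these above both at 32 h. Its log2 level fell by 1.75 ± 0.11 SE from 24 h to 32 h (limma, adjusted p = 2.04e-06). Nr1d1, the gene of REV-ERB alpha, held 1318 and 1190.0 at 24 h, 749 and 653 at 28 h and 651 and 548 at 32 h. Replicate 1 was the higher library of Nr1d1 at each of these times, and the 24 h and 32 h groups did not overlap. Its log2 level fell by 1.07 ± 0.16 (adjusted p = 0.0225).

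Per3, a member of the period family of repressor genes, held 876 and 1166 normalized reads at 24 h, 612 and 724 at 28 h and 398 and 405 at 32 h. The 24 h libraries of Per3 differed more from each other than the 32 h libraries did, and the lower of them was still above both at 32 h. Its log2 level fell by 1.33 ± 0.16 (limma, adjusted p = 0.00227). Tef, a bZIP activator that binds D-boxes, held 4523 and 4415 at 24 h, 3330.3 and 3842 at 28 h and 2078 and 2567 at 32 h. The 32 h libraries of Tef lay below all 4 earlier ones, with replicate 2 the higher of the pair. Its log2 level fell by 0.95 ± 0.11 (adjusted p = 0.00227).

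Arntl was the 1 gene that rose. It held 620.1 and 564 normalized reads at 24 h, 955 and 917 at 28 h and 1148 and 1213 at 32 h, and the 3 times did not overlap. Its log2 level rose by 0.995 ± 0.09 (limma, adjusted p = 0.000117). Arntl and Nr1d2 passed the threshold whichever of the 4 libraries was left out. Per3 had an adjusted p of 0.0597 once 24 h replicate 2 was left out and 0.0677 once 32 h replicate 1 was. For Tef it was 0.0642 and 0.0588 without replicates 1 and 2 at 24 h and 0.0677 without replicate 1 at 32 h. Nr1d1 failed to pass whichever was left out, with adjusted p = 0.608 and 0.143 without replicates 1 and 2 at 24 h and 0.0782 and 0.693 without those at 32 h. In the paired fit all 5 passed whichever of the 4 libraries was left out.

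**Figure D2:**
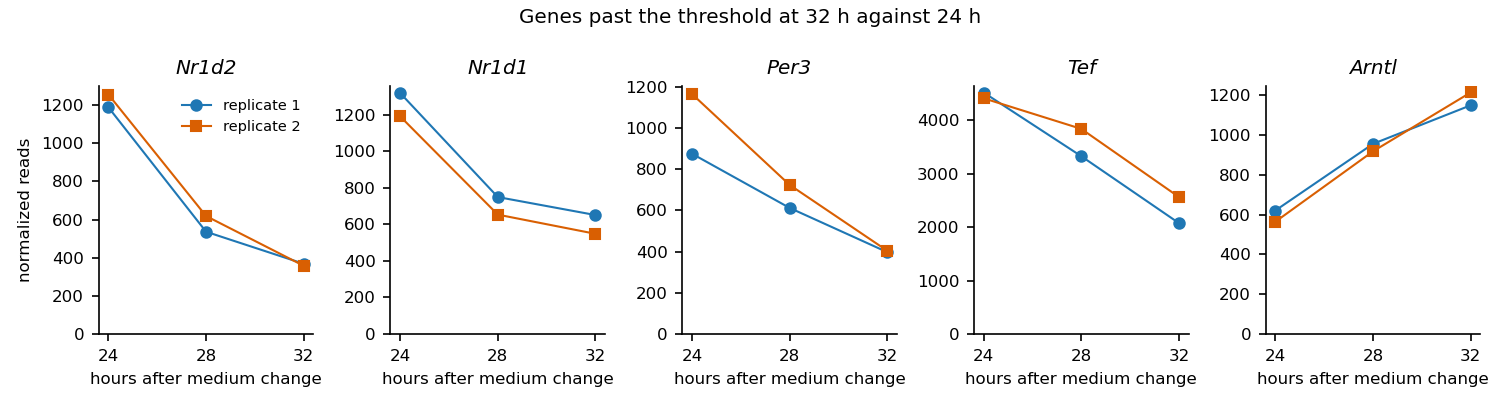
Normalized reads of Nr1d2, Nr1d1, Per3, Tef and Arntl at 24 h, 28 h and 32 h after the medium change. Circles are replicate 1 and squares replicate 2, each joined by a line, and every axis starts at 0. In both replicates the first 4 genes step down at 28 h and again at 32 h, and Arntl steps up.

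Genes that overlap in the genome can share reads when strand is not used in counting, and the strand setting is not given in the sources used here. In the mouse gene annotation at hand, Nr1d1 overlaps Thra, a thyroid hormone receptor gene, on the opposite strand. Thra was looked at for this reason after the results of Nr1d1 were seen, and held 1561 and 1762 normalized reads at 24 h and 1777 and 2109 at 32 h. Its log2 change of 0.22 ± 0.15 had the opposite sign to that of Nr1d1 and did not pass (limma, adjusted p = 0.769). Its paired adjusted p was 0.051 by limma, and it passed with the block in edgeR (0.0422), DESeq2 (0.0432), equal totals (0.0471) and quantile normalization (0.0396), and in no case with a 24 h or 32 h library left out. Per3 overlaps Camta1 on the same strand, Tef overlaps the antisense gene Gm17597 and Arntl the antisense gene Gm45355. How reads in such overlaps were counted is not given in the sources used here, and their part in these values was not tested.

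The list of clock genes that respond to E-boxes or D-boxes held 15 genes, and 11 of them did not pass. Of all 15, 14 had a negative log2 change, with a median of -0.37 against 0.00 over all tested genes. In 11 of the 15 both 32 h libraries lay below both 24 h libraries, an order that 19.4% of all tested genes showed. In the paired fit 8 of the 15 were lower, against 0.888% of all genes, and none was higher. The 4 added by that fit were Per2, Dbp, Bhlhe40 and Wee1. Their adjusted p in the paired fit was 0.0267, 0.0276, 0.0395 and 0.0146. When libraries were left out of that fit in turn, Dbp and Bhlhe40 no longer passed in any of the 4 cases. Per2 passed only without 32 h replicate 2, and Wee1 only without 24 h replicate 2.

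Dbp, a D-box activator, was at a low level in these cells, with 55 and 97.9 normalized reads at 24 h and 17.9 and 29.3 at 32 h. Both of its libraries were lower at 32 h, but the 24 h libraries lay far apart. Its log2 change of -1.64 ± 0.46 was exceeded in size by that of Nr1d2 alone among the clock genes, with adjusted p = 0.46 by limma. Per2 held 1472 and 1662 at 24 h and 816 and 1241 at 32 h, lower in both replicates (log2 -0.64 ± 0.20, adjusted p = 0.483). Wee1, the gene of a kinase that holds back entry into mitosis, held 1783 and 1762 and then 1376 and 1481. The replicates of Wee1 lay close together at both times, and its log2 change was -0.31 ± 0.07 (adjusted p = 0.46). Bhlhe40, the repressor DEC1, held 863 and 869.7 and then 678 and 689 (log2 -0.34 ± 0.10, adjusted p = 0.466).

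Per1, the period gene that glucocorticoids induce directly, held 5036 and 4621 normalized reads at 24 h and 3724 and 4444 at 32 h. Its replicates differed in the size of the step, with 1.35-fold in replicate 1 and 1.04-fold in replicate 2. Its log2 change was -0.25 ± 0.08 (limma, adjusted p = 0.505, and 0.0748 in the paired fit). Cry2, a cryptochrome repressor, held 956 and 822 and then 619 and 755, lower in both replicates (log2 -0.37 ± 0.12, adjusted p = 0.489, paired 0.0813). Gm129, the repressor CHRONO, held 63.6 and 95.6 and then 48.9 and 44.5 (log2 -0.73 ± 0.28, adjusted p = 0.589). Usp2, a deubiquitinase gene, and Hlf, the third D-box activator, had log2 changes of -0.04 ± 0.14 and -0.04 ± 0.32. Replicate 2 of Hlf stood above replicate 1 at 24 h, 28 h and 32 h, and its 95% interval was -0.73 to 0.65. Bhlhe41, a repressor at E-boxes, was low, with 20.6 and 37.8 normalized reads at 24 h and 17.9 and 28.3 at 32 h (log2 -0.30 ± 0.34).

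Among clock genes with REV-ERB/ROR elements, 1 of 5 tested members (Arntl) rose, and their median log2 change was 0.08. Nfil3, the repressor of D-boxes, held 1472 and 1759 normalized reads at 24 h and 2094 and 2168 at 32 h. Both 32 h libraries of Nfil3 were above both 24 h libraries. Its log2 change was 0.40 ± 0.11 (limma, adjusted p = 0.46), and it was higher in the paired fit (adjusted p = 0.0013, and 0.101 there without 32 h replicate 1). Clock, the partner of Arntl, had a log2 change of 0.08 ± 0.06 with a 95% interval of -0.05 to 0.21. The log2 change of Cry1 was -0.07 ± 0.17 and that of E2f8, an atypical E2F repressor, -0.09 ± 0.06. Npas2, which can replace Clock, was below the level for testing, with 0 to 3.34 normalized reads in the 4 libraries.

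None of the 12 tested members of 15 other clock components passed in either fit. They include the casein kinases that mark PER proteins for turnover (Csnk1d and Csnk1e) and the F-box proteins of PER and CRY degradation (such as Btrc and Fbxw11). Their median log2 change was 0.00. The member with the smallest p was Wdr5, a subunit of histone methyltransferase complexes, at -0.19 ± 0.06 (limma, adjusted p = 0.46). Csnk1e had a log2 change of -0.11 ± 0.06 and Csnk1d one of 0.01 ± 0.05. Rora, Rorb and Fbxl21 were too low to be tested, and Rorb was listed at 0 in the 24 h, 28 h and 32 h libraries.

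On the log2 scale the larger step of Nr1d2, Nr1d1 and Arntl came before 28 h, and that of Tef after it. For Per3 the order depended on the scale. Its log2 step was slightly larger after 28 h, but its normalized reads fell more before 28 h in both replicates. Between 24 h and 28 h, 2 genes passed (0.0161%): Nr1d2 fell by 1.08 ± 0.11 on the log2 scale (limma, adjusted p = 0.00102) and Arntl rose by 0.66 ± 0.09 (adjusted p = 0.017). With any 1 of the 4 libraries of 24 h and 28 h left out, no gene was called higher in this step, Arntl included. The paired fit called 10 genes for this step (0.0807%). Between 28 h and 32 h no gene passed by limma, where 118 genes had an unadjusted p under 0.05. The quasi-likelihood test of edgeR called 0, DESeq2 called 3 (Nr1d2, Per3 and Tef) and the paired fit called 2. The log2 change in the 2 steps was -1.08 and -0.66 for Nr1d2, -0.84 and -0.23 for Nr1d1, and -0.60 and -0.73 for Per3. For Tef it was -0.32 and -0.63, and for Arntl 0.66 and 0.33. The steps share the 28 h libraries, and the difference between them was not tested.

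The paired fit tests whether the mean change within replicates differs from 0, after the difference between replicate numbers is taken out. Its 242 calls were small changes, with a median size of 1.23-fold and 217 of 242 under 1.5-fold, and the 5 clock genes were among them. The number depended on which library was left out: leaving out replicate 1 or 2 at 24 h gave 38 or 285 genes, and leaving out replicate 1 or 2 at 32 h gave 21 or 62. Across the 12393 genes the log2 changes of the 2 replicates had a Pearson correlation of 0.214, and 60.2% had the same sign. Genes are not independent replicates, and the pairing itself rests on the data.

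Of the 242 genes, 15 passed the paired fit with each of the 4 libraries left out in turn, 9 lower and 6 higher. They are named here after these results were seen. Beside the 5 clock genes they included Ppbp, Ctgf, Ifi30 and Fxyd5, which were lower, and Sned1, Cbr2, Cp, Errfi1 and Thbs2, which were higher. Ppbp, a platelet-type chemokine gene, held 4624 and 3472 normalized reads at 24 h, 3124 and 2452 at 28 h and 2427 and 2089 at 32 h. It stood higher in replicate 1 at every one of these times and stepped down in both replicates (log2 -0.83, limma paired adjusted p = 7.29e-08). Without the block its adjusted p was 0.46.

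Ctgf, a matricellular growth factor gene, held 22124 and 17414 normalized reads at 24 h and 13761 and 13081 at 32 h, and the groups did not overlap (log2 -0.55, limma paired adjusted p = 0.000123). Ifi30, a lysosomal thiol reductase gene, and Fxyd5, a modulator of the sodium pump, had log2 changes of -0.51 and -0.42. All 3 were lower at 32 h in both replicates. Thbs2, the matrix protein thrombospondin 2, held 7818 and 7881 at 24 h and 9820.1 and 10476 at 32 h, higher in both replicates (log2 0.37, paired adjusted p = 0.0005). Errfi1, an inhibitor of the EGF receptor that glucocorticoids induce, held 5103 and 5726 and then 6585 and 7984 (log2 0.42, paired adjusted p = 0.000167). The ferroxidase gene Cp, the matrix protein gene Sned1 and the carbonyl reductase gene Cbr2 had log2 changes of 0.53, 0.66 and 0.72. Without the block none of the 10 genes outside the clock passed by limma, while DESeq2 called Ctgf and Thbs2.

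Sterol synthesis genes were higher at 32 h in the paired fit, 7 of 19 tested against 1.07% of all genes, and none was lower. They included Mvd, Fdps, Fdft1 (squalene synthase), Lss (lanosterol synthase), Sc4mol and Dhcr7. The median log2 change of the 19 was 0.22, 18 were positive, and in 16 both 32 h libraries lay above both 24 h libraries (18.5% of all tested genes). Fdps held 2729 and 2840.4 normalized reads at 24 h, 2985 and 3572 at 28 h and 3688 and 3794 at 32 h. Both replicates of Fdps stepped up by a like amount (log2 0.43 ± 0.10). Lss held 946 and 969 at 24 h and 1307 and 1197 at 32 h, and Dhcr7, the enzyme of the last step to cholesterol, 327 and 383 and then 528 and 443. For Dhcr7 the step was larger in replicate 1. Without the block none passed by limma (adjusted p = 0.36 for Lss and 0.46 for Fdps), while DESeq2 called these 2. The paired count was 1 or 6 when replicate 1 or 2 at 24 h was left out, and 0 or 5 when replicate 1 or 2 at 32 h was.

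Ribosome biogenesis genes were lower at 32 h in the paired fit, 7 of 21 tested against 0.888% of all genes, and none was higher. They were Nop56 and Nop58 (core proteins of box C/D particles), Ncl (nucleolin), Dkc1 (dyskerin), Nolc1, Rrp9 and Gnl3 (nucleostemin). The median log2 change was -0.14, 20 of 21 were negative, and in 14 both 32 h libraries lay below both 24 h libraries (19.4% of all tested genes). Nop58 held 8905 and 8547 normalized reads at 24 h, 7859 and 7518 at 28 h and 7504 and 7341 at 32 h. The libraries of the 3 times of Nop58 did not overlap (log2 -0.23 ± 0.06). Without the block none passed (limma, adjusted p = 0.46 for Nop58). The paired count was 0 or 4 when replicate 1 or 2 at 24 h was left out, and 0 or 3 when replicate 1 or 2 at 32 h was. Cytosolic ribosomal protein genes had 0 of 23 members called in either fit and a median log2 change of 0.05.

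**Figure D3:**
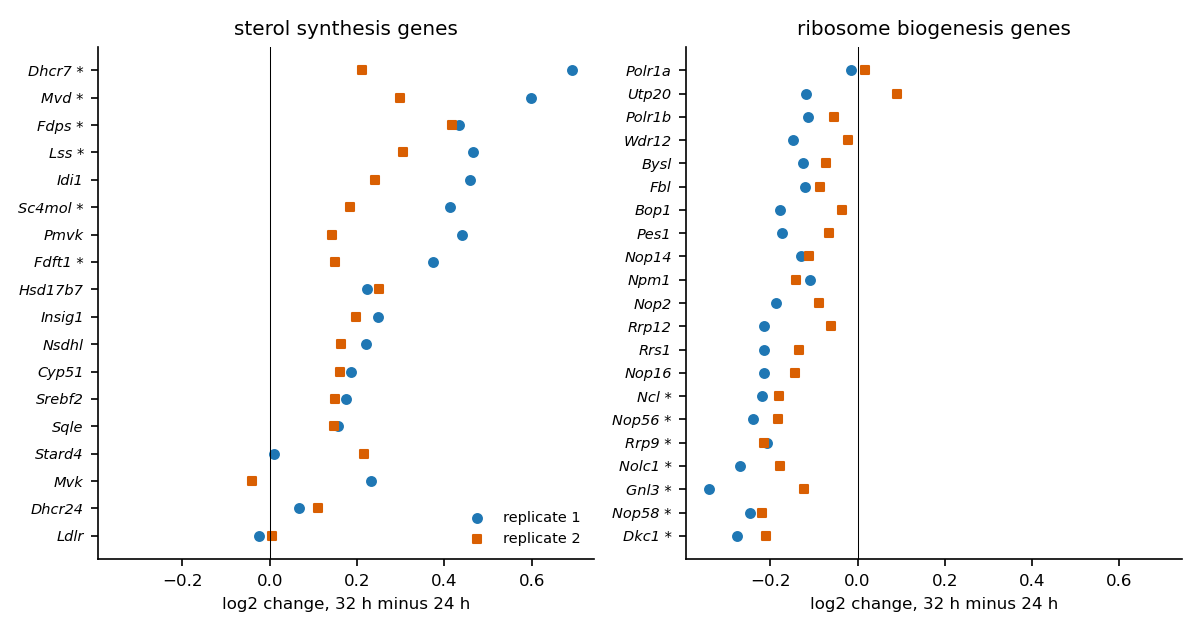
Log2 change from 24 h to 32 h of 18 tested sterol synthesis genes (left) and each tested ribosome biogenesis gene (right), with replicate 1 as circles and replicate 2 as squares. Stars mark genes past the threshold in the paired fit, 6 on the left and 7 on the right. In both replicates most sterol genes lie right of 0 and most ribosome biogenesis genes left of it.

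Cell cycle genes had mostly small negative changes. Of 28 tested DNA replication (G1/S) genes, 27 had a negative log2 change with a median of -0.11, and of 28 mitosis (G2/M) genes all 28 did, with a median of -0.10. In 15 and 23 of them both 32 h libraries lay below both 24 h libraries, as in 19.4% of all tested genes. Where the paired fit had 0.888% of all genes lower, it called 2 replication genes, among them Rrm1, a subunit of ribonucleotide reductase, and 1 mitosis gene, Kif23, a kinesin of the midbody. Rrm1 held 12225 and 11739.8 normalized reads at 24 h and 10650.4 and 10396 at 32 h (log2 -0.19 ± 0.05, limma adjusted p = 0.46, paired adjusted p = 0.0315). Neither Rrm1 nor Kif23 passed the paired fit when any of the 24 h or 32 h libraries was left out. Birc5 (survivin) held 4153 and 4384 and then 3861 and 3657 (log2 -0.18 ± 0.06). With all libraries it did not pass by limma in either fit (paired adjusted p = 0.0502). It passed with the block in edgeR (adjusted p = 0.0458) and DESeq2 (0.0386). Without the block no member of either list passed by limma, edgeR or DESeq2. In the paired fit the replication genes had 4 calls without 24 h replicate 2 and 0 without any other of the 4 libraries, and the mitosis genes 2 without 24 h replicate 1 and 0 without any other.

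Secretory pathway and matrix genes had a few members among the paired calls, where 1.07% of all genes were higher and 0.888% lower. Of 17 endoplasmic reticulum chaperone genes, 3 were higher in the paired fit: Hspa5 (BiP), Creld2 and the regulator Xbp1. Hspa5 held 25869 and 28060.5 normalized reads at 24 h and 34667 and 33575 at 32 h (log2 0.34 ± 0.11, limma adjusted p = 0.483, paired 0.0276), and the median of the 17 was 0.16. Of 22 extracellular matrix genes, 4 were higher (Col6a1, Col12a1, Thbs2 and Lox) and the median was 0.07. Of 15 TGF-beta response genes, 3 were lower, among them Ltbp1 and Pmepa1, with a median of -0.05. Neither Ltbp1 nor Pmepa1 passed with either 32 h library or 24 h replicate 1 left out. Of 14 NRF2 antioxidant targets, 3 were lower: Gclc and Gclm, the subunits of a ligase in glutathione synthesis, and Txnrd1, thioredoxin reductase. With either 32 h library or 24 h replicate 1 left out, the paired fit called 0 chaperones, 1 matrix gene, 1 TGF-beta gene and 0 NRF2 targets.

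Glucocorticoid receptor targets, immediate early genes and the remaining lists showed few calls on the second day. Of 21 glucocorticoid receptor targets, 3 were higher in the paired fit (Errfi1, Pdk4 and Lox; 1.07% of all genes) and 0 lower (0.888% of all genes), with a median log2 change of 0.01. Of 27 immediate early genes, which growth factors switch on within minutes, 2 were higher (Egr2 and Btg2) and 1 lower (Fosl1), with a median of 0.05. Egr2 held 176 and 194 normalized reads at 24 h and 259.5 and 285 at 32 h (log2 0.56 ± 0.13, limma adjusted p = 0.46, paired 0.0113). Fos held 37 and 57.8 and then 86.5 and 93 and did not pass (log2 0.94 ± 0.34, adjusted p = 0.565, paired 0.104). Tagln2 was the 1 call among 20 SRF and MRTF targets and Ctgf the 1 call among 10 YAP and TAZ targets, both lower. Scd1, a fatty acid desaturase gene, the chemokine gene Ccl7 and Sesn3 were the single calls of their lists, all higher. Ctgf passed the paired fit whichever library was left out. Tagln2 did not in any of the 4 cases, Scd1 and Sesn3 passed only without 24 h replicate 1, and Ccl7 only without 24 h replicate 2. With either 32 h library or 24 h replicate 1 left out, no immediate early gene was called and 1 glucocorticoid receptor target was higher, with 1 lower without 32 h replicate 2. The hypoxia and glycolysis genes (24 tested), the ATF4 amino acid response (18), the lysosome and autophagy genes (17), the interferon-stimulated genes (12) and the cold-inducible and heat-linked clock outputs (9) held no call in either fit.

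The same hours of the first day showed far more change. From 0 h to 8 h, 4263 genes (34.4%) passed, 2144 higher (17.3%) and 2119 lower (17.1%), against 5 from 24 h to 32 h. The change of day 2 minus the change of day 1 was tested in the same fit, and 2508 genes (20.2%) passed, 1298 with a higher (10.5%) and 1210 with a lower second-day change (9.76%). Scaling the libraries to equal totals shifted the median difference of all genes by -0.13 and gave 3473 genes, of which 24.6% were higher, against 51.8% with the deposited scaling. All 5 genes called at 32 h also passed at 8 h against 0 h in the same direction. Of the 132 genes higher in the paired fit at 32 h, 85 (64.4%) were lower at 8 h against 0 h in its paired fit and 18 (13.6%) higher, where 24.7% and 23.5% of all genes were (48.2% in all). These were 2.77% and 0.619% of the genes lower and higher at 8 h. Of the 110 genes lower at 32 h, 32 (29.1%) were lower and 34 (30.9%) higher at 8 h, or 1.04% and 1.17% of those lists.

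For Per3 and Tef no difference between the days was detected. Per3 held 753 and 913 normalized reads at 0 h and 329 and 289 at 8 h, a log2 change of -1.42 ± 0.16 against -1.33 ± 0.16 a day later. The difference was 0.09 with a 95% interval of -0.39 to 0.57. Tef held 3136 and 3763 at 0 h and 1899 and 1918 at 8 h, and its difference between the days was -0.10 (-0.45 to 0.24). Nr1d2 fell by 2.15 ± 0.11 on the first day and Nr1d1 by 1.69 ± 0.16. Their differences of 0.40 and 0.62 did not pass (limma, adjusted p = 0.0771 and 0.0629) but did in the paired fit (0.0297 and 0.00282), where the second-day fall was the smaller. A p that misses the threshold does not show that the days were alike. Arntl held 800.2 and 692 at 0 h and 984 and 1000.03 at 8 h, a rise of 0.41 ± 0.09, and its second-day rise was larger by 0.58 ± 0.12 (adjusted p = 0.00523). Arntl stood lower at 24 h than at 0 h in both replicates and higher at 32 h than at 8 h.

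In 3 of the 15 E-box or D-box genes the second-day change was higher, meaning a less negative change, and in none lower (10.5% and 9.76% of all genes). Bhlhe40 held 3877 and 4102 normalized reads at 0 h and 1236 and 1098 at 8 h, and its level at 0 h was above every 24 h and 32 h library. Its log2 change of -1.77 ± 0.10 on the first day differed from the second day by 1.43 ± 0.15 (limma, adjusted p = 2.27e-05). Per1 held 7102 and 8058 at 0 h and 2981 and 2977 at 8 h, and its difference was 1.10 ± 0.12 (adjusted p = 2.83e-05). Per2 held 1795 and 2709 at 0 h and 704 and 835 at 8 h, with a difference of 0.89 ± 0.28 (adjusted p = 0.0398). That of Per2 did not pass without either 24 h library (adjusted p = 0.118 for replicate 1 and 0.0562 for replicate 2), nor without replicate 2 at 32 h (0.185), replicate 2 at 0 h (0.18) or replicate 1 at 8 h (0.127). In the paired fit 6 of the 15 were higher and 1 lower, where 36.4% of all genes differed (19% higher and 17.4% lower).

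Of the REV-ERB/ROR element genes, Nfil3 turned from a fall to a positive change. It held 2573 and 3093 normalized reads at 0 h and 1208 and 1393 at 8 h, and its difference between the days was 1.52 ± 0.16 (limma, adjusted p = 2.27e-05). Cry1, whose log2 change was 0.73 ± 0.17 on the first day, had a second-day change that was lower; the difference was -0.80 ± 0.24 (adjusted p = 0.0293). It did not pass without either 24 h library (0.0589 and 0.0722), nor without replicate 1 at 32 h (0.0989), replicate 1 at 0 h (0.104) or replicate 2 at 8 h (0.0945). Among the other components the difference was 0.52 ± 0.08 for Csnk1e, 0.41 ± 0.10 for Fbxw11 and -0.62 ± 0.15 for Timeless. Their log2 changes were -0.64, -0.35 and 0.52 at 8 h against 0 h and -0.11, 0.06 and -0.09 at 32 h against 24 h.

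**Figure D4:**
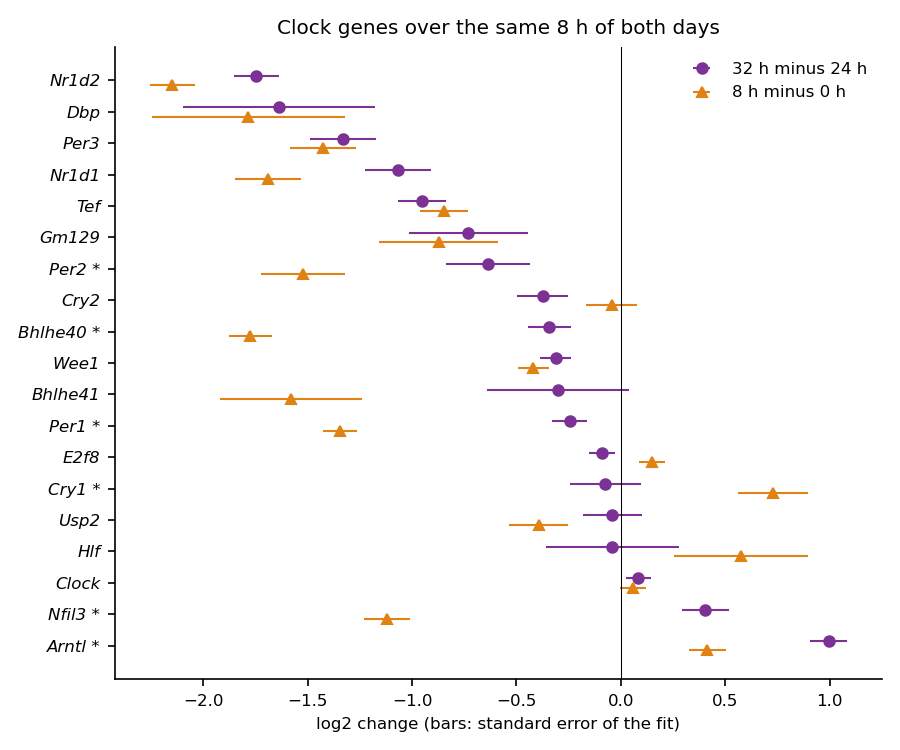
Log2 change of 19 tested clock genes of the E-box or D-box and REV-ERB/ROR element lists over 24 h to 32 h (circles) and 0 h to 8 h (triangles). Bars are the standard error of the limma fit, and stars mark genes whose change differed between the days. Nr1d2, Per3, Nr1d1 and Tef lie left of 0 on both days and Arntl right of 0 on both, while Nfil3 is on opposite sides.

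Most immediate early genes and glucocorticoid receptor targets had higher second-day changes. Of 27 immediate early genes, 24 fell and 1 rose from 0 h to 8 h with a median log2 change of -1.55, where 17.1% of all genes fell and 17.3% rose. Their second-day change was higher in 22 and lower in none, against 10.5% and 9.76% of all genes. Egr2 held 3095 and 4306 normalized reads at 0 h and 271 and 262 at 8 h, and its difference between the days was the largest among named genes at 4.33 ± 0.18 (limma, adjusted p = 7.58e-09). Atf3, a stress-induced bZIP factor, held 715 and 847 at 0 h, 81.9 and 85.1 at 8 h, 76.5 and 83.4 at 24 h and 73.3 and 93 at 32 h. The 8 h, 24 h and 32 h groups of Atf3 overlapped, and its difference was 3.25. The early response genes Egr3 and Btg2 had differences of 3.10 and 2.88. Of 21 glucocorticoid receptor targets, 15 fell and 1 rose on the first day (median -0.92), and the second-day change was higher in 15. Errfi1 held 34713 and 43853 at 0 h and 5309.9 and 5871 at 8 h, with a difference of 3.23.

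Agt, the angiotensinogen gene, was low, with 45.2 and 109.8 normalized reads at 0 h, 16.4 and 31 at 8 h, 19.8 and 38.9 at 24 h and 49.8 and 102 at 32 h. Replicate 2 of Agt was the higher at each of these times, and its difference of 2.93 ± 0.83 (limma, adjusted p = 0.0244) did not pass without replicate 1 at 24 h (0.0938), replicate 2 at 32 h (0.109), replicate 2 at 0 h (0.112) or replicate 1 at 8 h (0.0884). In the other direction the largest differences among named genes were those of 6 genes that rose from 0 h to 8 h. Kcnj2, an inward rectifier potassium channel gene, held 41.5 and 31.6 at 0 h, 167 and 205 at 8 h, 447 and 413 at 24 h and 463 and 451 at 32 h. Its 24 h and 32 h levels were above those at 8 h, and its difference was -2.23 ± 0.23 (adjusted p = 2.18e-05). The protease gene Adam12, the insulin receptor substrate gene Irs1, Txnip, Akap17b and Rnf122 had differences of -1.76, -1.64, -1.56, -1.67 and -1.54.

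Sterol synthesis genes had medians of opposite sign on the days. On the first day 13 of 19 fell and none rose (median -0.44), against 17.1% and 17.3% of all genes. The second-day change was higher in 15 of 19, against 10.5% of all genes. Sc4mol held 5573 and 4569 normalized reads at 0 h, 2568 and 2718 at 8 h, 2359 and 2466 at 24 h and 3143 and 2802 at 32 h. The steep fall of Sc4mol to 8 h had no second-day match, and its difference was 1.23 ± 0.12 (limma, adjusted p = 1.08e-05). Endoplasmic reticulum chaperones rose in 16 of 17 on the first day (median 0.71) against a median of 0.16 on the second, and the second-day change was lower in 14 (9.76% of all genes). Hspa5 held 42739.6 and 36615 at 0 h and 86437 and 81640.4 at 8 h, and its 24 h and 32 h libraries all lay below these. Its difference was -0.75 ± 0.15 (adjusted p = 0.00365). Sdf2l1, a chaperone cofactor gene, had one of -1.43.

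DNA replication genes rose in 16 of 28 on the first day (median 0.22) and mitosis genes in 20 of 28 (median 0.27, with 1 lower), where 17.3% of all genes rose. The second-day change was lower in 18 and 20, against 9.76% of all genes. For the replication genes the count was 10 without 32 h replicate 2 and 11 without 0 h replicate 2. Ribosome biogenesis genes, of which 5 rose on the first day, had a lower second-day change in 9 of 21, and both counts are read against the same 17.3% and 9.76%. That count was 2 with any of 4 libraries left out (replicate 1 at 24 h or 8 h, replicate 2 at 32 h or 0 h), 15 with equal totals and 16 in the paired fit. Cytosolic ribosomal protein genes fell in 15 of 23 on the first day, with a higher second-day change in 10 of 23 (17.1% and 10.5% of all genes). This count was 3 with equal totals, 2 with quantile normalization, 21 in the paired fit and 2 to 6 when replicate 1 at 24 h or 8 h, replicate 2 at 32 h or either 0 h library was left out. SRF and MRTF targets had a higher second-day change in 9 of 20 (10.5% of all genes), with 5 under quantile normalization and 15 in the paired fit.

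**Figure D5:**
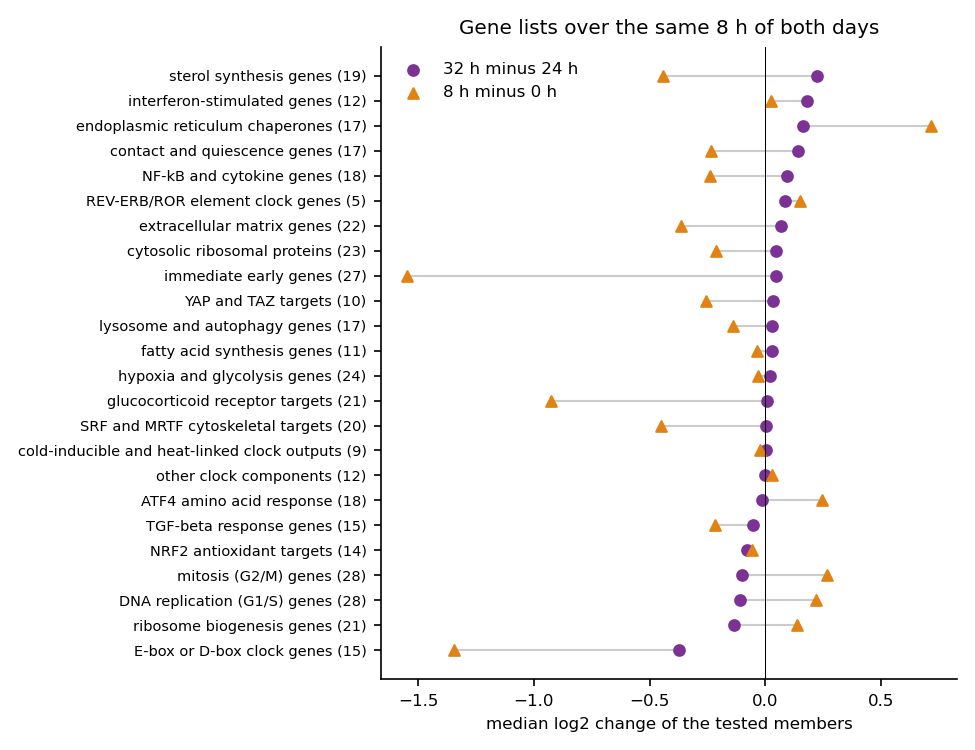
Median log2 change of the tested members of 24 gene lists over 24 h to 32 h (circles) and 0 h to 8 h (triangles), with the number of tested members in parentheses and a grey line joining the values of a list. The second-day medians lie between -0.37 (E-box or D-box clock genes) and 0.22 (sterol synthesis genes), and the first-day medians between -1.55 (immediate early genes) and 0.71 (endoplasmic reticulum chaperones).

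The libraries carried the RNA of most fibroblast markers at both times. The 11 fibroblast markers summed to 906435 to 907064 normalized reads at 24 h and 918862 to 983102 at 32 h, led by Fn1 (fibronectin). Of them Pdgfrb was higher in the paired fit (11360.2 and 11259 at 24 h, 12671 and 13545 at 32 h). Lum of the same list was near 0, with 0.86 and 1.11 normalized reads at 24 h and 1.88 and 0 at 32 h. Sums of 10 epithelial markers were 177 to 221 at 24 h and 215 to 246 at 32 h, with Epcam and Esrp1 at 0 in the 4 libraries, and those of 10 leukocyte markers were 337 to 418 and 367 to 394, with Cd3e, Emr1 and Tyrobp at 0. The 8 endothelial markers summed to 47.8 to 72.2 and 43.5 to 71.5, with Kdr and Erg at 0. The 8 adipocyte markers summed to 58.5 to 60.1 and 44.2 to 72.8, with Lep at 0. Other members of these lists were present. The highest were Krt8, Cd68, Cdh5 and Fabp4, with means over the 4 libraries of 133, 249, 25.9 and 46.2. Csf1r held 127 and 92.3 at 24 h and 103 and 99.1 at 32 h, and Krt14 61.9 and 61.2 and then 64.9 and 52.6. Of 8 skeletal muscle markers (1283 to 1515 and 1090.2 to 1115, Myod1 at 0) Acta1 was lower in the paired fit, and of 7 neural markers (324 to 401 and 277 to 310, Olig2 at 0) Tubb3 was. With a library left out, Pdgfrb and Acta1 did not pass the paired fit in any case, and Tubb3 passed only without 24 h replicate 2. No marker of these lists passed without the block, and the part of other cells in the results was not tested.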

How the data were processed

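RNA was measured in 18 libraries, 9 times with 2 libraries each, and the groups were read from the sample titles. The deposited values are a signal, normalized reads per gene, for which the submitters' processing notes name TopHat, HTSeq, DESeq and the genome build mm9, without versions; the annotation, the strand setting and other options are not given in the sources used here. Dividing each deposited column by its smallest step gave whole reads for 100% of values within 0.02 reads, 25.4 to 38.9 M reads per library, so the precision of a gene follows from its read number and from 2 libraries per time.

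Genes with a mean of at least 10 (12393 of 21937) were fitted with limma 3.58.1 in R 4.3.3 on log2(value + 1), with all 18 libraries, 9 times as groups, a variance trend and a Benjamini-Hochberg threshold of 0.05, 2-sided. Contrasts were 32 h against 24 h, its 2 steps, 8 h against 0 h and the difference of the 2 days. The code for 32 h against 24 h without the block was tested on simulated data that held no replicate effect. The paired fit and the difference between the days were not tested in this way. After the mean of each time was taken out, libraries with the same number were correlated above 0.1 in 36 of 36 pairs of times (0.230 to 0.502, median 0.345, and 0.296 for 24 h with 32 h), so the numbers pair the libraries. This comes from the data, since the labels name no shared culture or day, and the paired fit added the replicate number as a block.

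The comparison, the 31 gene lists and the naming rule were chosen with earlier results of these data known. The rule named the tested clock genes. Added were up to 12 genes each way with a mean of at least 50 that passed with each of the 4 libraries left out. From each other list it took up to 4 members with the smallest p. The last were the 6 highest and 6 lowest differences between the days among genes that passed that test with a mean of at least 50. Of the 509 listed genes, 505 were in the table. Alternatives were other pseudocounts (0.5 and 5), other filters, equal totals, quantile normalization, no trend, a robust fit, recovered reads tested with edgeR 4.0.16 or DESeq2 1.42.0, the replicate block, the libraries of the compared times alone, and leaving out each library. The alternatives of the paired fit and of the steps, and the look at single libraries in it, were added after seeing the data. Promoters were read from RefSeq tables with Python 3.11.15, and figures drawn with matplotlib 3.10.9. Some listed genes are counted but not reported here by name or drawn.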

Additional observations from a re-analysis of the deposited data

Results flagged for a closer look

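The change from 24 h to 32 h and the change from 0 h to 8 h differed in 2508 genes by limma's test of the difference itself, and each gene named here passed it. The sign is that of the second day's log2 change minus the first day's.

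Among clock genes the difference was 1.10 for Per1, 0.89 for Per2, 1.43 for Bhlhe40, 0.58 for Arntl, 1.52 for Nfil3, 0.52 for Csnk1e and 0.41 for Fbxw11. It was negative for Cry1 (-0.80) and Timeless (-0.62). Arntl was the 1 gene of these that also passed from 24 h to 32 h alone.

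Genes that passed this test and had a mean of at least 50 over the 0 h, 8 h, 24 h and 32 h libraries were ranked. The highest differences were those of Egr2 (4.33), Atf3 (3.25), Errfi1 (3.23), Egr3 (3.10), Agt (2.93) and Btg2 (2.88). The lowest were those of Kcnj2 (-2.23), Adam12 (-1.76), Akap17b (-1.67), Irs1 (-1.64), Txnip (-1.56) and Rnf122 (-1.54).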

How the results depend on the processing

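No gene of the naming rule that passed in the main fit or in an alternative to it changed sign between them. Signs of genes that passed in neither were not compared. The balance of the difference between the days did turn. Of its calls, 51.8% were higher with the deposited scaling, 24.6% with equal totals and 42.7% with quantile normalization. From 24 h to 32 h, leaving out a library gave 2 to 4 genes (1 higher in each case, 1 to 3 lower), with at least 2-fold changes in 0 to 1 higher and 1 to 3 lower. DESeq2 gave 12 of 12393 tested genes (5 higher, 7 lower). Among them were 1 of 10 YAP and TAZ targets, 2 of 19 sterol synthesis genes and 1 of 22 matrix genes. Equal totals gave 1 gene at least 2-fold higher. The replicate block gave 242 (132 higher, 110 lower, with 2 and 7 at least 2-fold). These were 1.95% of all tested genes, 1.07% higher and 0.888% lower. It called 8 of 15 E-box or D-box genes, 2 of 5 REV-ERB/ROR genes, 7 of 19 sterol genes and 7 of 21 ribosome biogenesis genes. Of 22 matrix genes it called 4, and of 28 replication genes 2. Calls of 3 were made among 21 glucocorticoid, 27 immediate early, 15 TGF-beta, 17 chaperone and 14 NRF2 genes. Single calls were made among 20 SRF, 10 YAP, 28 mitosis, 11 fatty acid, 18 NF-kB, 17 quiescence, 10 fibroblast, 4 muscle and 2 neural genes. Beyond the lists, the block also called named genes that limma did not call without it. Among them were Ppbp, Ifi30, Fxyd5, Cp, Cbr2, Sned1, Gdpd2, Serpinb2 and Prl2c2. Without the trend Nr1d1 did not pass (adjusted p = 0.119), nor did the differences of Per2 (0.0703) and Cry1 (0.0525) between the days; that of Per2 also missed with no filter (0.0606), equal totals (0.0588) and the compared times alone (0.0869). Leaving out a library, the E-box or D-box list had 1 to 3 members and the REV-ERB/ROR list 1. In the paired fit leaving out a library gave 21, 38, 62 and 285 genes (without 32 h replicate 1, 24 h replicate 1, 32 h replicate 2 and 24 h replicate 2; 7 to 138 higher and 14 to 147 lower, with 23 and 15 in the second case and 37 and 25 in the third). The difference between the days gave 1439 to 2379 genes without a library (811 to 1228 higher, 628 to 1151 lower; at least 2-fold, 208 to 343 and 48 to 112), 4510 (2359 and 2151) with the block, 856 higher and 2617 lower (150 at least 2-fold) with equal totals, 791 lower with only the libraries of its 4 times, and 44 at least 2-fold lower with a mean of at least 50. From 24 h to 28 h, 2 genes became 1 (0 higher) without the trend or with the compared times alone, 10 (3 higher, 7 lower) with the block, 2 lower by DESeq2 and 1 to 2 (0 higher, 1 to 2 lower) without a library. From 28 h to 32 h, 0 became 3 (all lower) by DESeq2, 2 (both lower) with the block, and stayed 0 without a library. The cause of these shifts was not tested. With 2 libraries per time, a time left with 1 was assumed to vary like the others.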

Other observations

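Outside the lists, the paired calls from 24 h to 32 h included genes of low level, named here after their values were seen. Gdpd2 held 41.3 and 90.1 normalized reads at 24 h and 117 and 213 at 32 h, with 82.1 and 168 at 28 h (log2 1.36 ± 0.55, limma adjusted p = 0.59, paired adjusted p = 0.00212). Replicate 2 of Gdpd2 was the higher at each of these times. Dpep1, a dipeptidase gene, held 69.7 and 120.1 normalized reads at 24 h and 134 and 212 at 32 h (log2 0.87 ± 0.54, paired adjusted p = 0.0286). Agt, the angiotensinogen gene, had a log2 change of 1.33 ± 0.59 (paired adjusted p = 0.00291) and Mrgprf, a receptor gene of the Mas family, one of 0.66 ± 0.27 (paired adjusted p = 0.00835). Sparcl1, a matricellular protein gene, held 101 and 101 normalized reads at 24 h and 145 and 159 at 32 h, higher in both replicates (paired adjusted p = 0.0395). Uba7 and Ms4a4d had nearly equal levels in the 32 h libraries, with log2 changes of 0.68 ± 0.17 and 0.69 ± 0.19 (paired adjusted p = 0.0289 and 0.0219). The calls of Dpep1 and Sparcl1 were lost when any of the 24 h or 32 h libraries was left out. They also missed under quantile normalization (limma paired adjusted p = 0.0524 and 0.0502). Those of Uba7 and Ms4a4d held only without 24 h replicate 2.

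Among the lower genes, Serpinb2, the plasminogen activator inhibitor PAI-2, held 149 and 69 normalized reads at 24 h and 56.4 and 44.5 at 32 h (2-fold lower, limma adjusted p = 0.595, paired adjusted p = 0.00228). The 24 h libraries of Serpinb2 differed more from each other than the 32 h libraries did. Prl2c2, a proliferin gene of a family of near-identical copies whose reads may be split between them, held 126 and 91.2 normalized reads at 24 h and 77.1 and 43.5 at 32 h (log2 -0.88 ± 0.34, paired adjusted p = 0.0106). Of the paired calls among these genes, Prl2c2 was the one that also passed without 32 h replicate 1, though not without 24 h replicate 1 (adjusted p = 0.0669) or 32 h replicate 2 (0.118). Ddit3, the stress factor CHOP of the ATF4 list, held 620.1 and 854 normalized reads at 24 h and 1031 and 936 at 32 h and did not pass in either fit (log2 0.43 ± 0.13, paired adjusted p = 0.0557). Ddx58, the RNA sensor RIG-I among the interferon-stimulated genes, held 300.1 and 389 normalized reads at 24 h and 433 and 455 at 32 h and did not pass either (paired adjusted p = 0.105). Gapdh, of the glycolysis list, had a log2 change of -0.10 ± 0.06.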
